A study of Mus musculus with 24 samples.

Results

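Acute phase proteins are plasma proteins whose synthesis in the liver changes when tissue is injured or infected. The levels of 10 positive acute phase genes were described here, chosen by symbol from the 49315 genes of the count and TPM tables: Saa1, Saa2, Saa3, Hp, Hpx, Lcn2, Orm1, Orm2, Lbp and Crp. Each symbol matched 1 row, and all 10 passed the filter on low counts that left 17216 genes for testing.

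The samples were individual livers, 6 in each of 4 groups. Wild-type control and Mdr2-/- control livers had received an empty transduction and carried no tumour. Wild-type tumour and Mdr2-/- tumour livers had received AKT and YAP1 by transposon-based integration and carried cholangiocarcinoma, a cancer with bile duct features. Mdr2, officially Abcb4, is the canalicular phospholipid exporter, and mice without it develop chronic bile duct injury. The sources used here do not give strain, sex, age, the promoter that drives the oncogenes or the time after transduction. The tissue sequenced was tumour-bearing liver, not dissected tumour. Nothing in the labels ties 2 libraries to 1 animal, so each was taken as its own animal, and p-values speak only of the spread between libraries. Replicate numbers are not from the labels. They were given here in the order of the number in each library's title within its group.

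In the liver, interleukin 6 signals through Jak kinases and Stat3, and interleukin 1 and tumour necrosis factor signal through NF-kB. Both routes act together with C/EBP factors on the promoters of acute phase genes in hepatocytes. Serum amyloid A and lipocalin 2 are known for steep induction, while Crp, the classical human marker, responds weakly in mice.

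The libraries held 20976459 to 30288385 counts, and 1 CPM, a count scaled to its library's size after the TMM correction for composition, stood for 16.4 to 34.2 counts. Abcb4 was lower in the Mdr2-/- libraries without overlap (log2 fold change -3.13 ± 0.23 SE in control livers and -2.91 ± 0.23 in tumour-bearing livers). The residual level, 7.85 TPM in Mdr2-/- controls against 50.8 in wild-type controls, was a level of the whole gene, and the counts do not show which exons it came from. In an earlier analysis of these libraries, wild-type tumour replicate 6 and Mdr2-/- tumour replicate 1 stood apart from their groups, and each call below that changes without them is named. Hepatocyte markers were abundant in every group (summed level of 10 markers 84631, 66663, 80865 and 48541 TPM in wild-type control, wild-type tumour, Mdr2-/- control and Mdr2-/- tumour livers, the order used throughout).

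The 250 bases before the start of 7 of the 10 genes were found in RefSeq (build GRCm38.p6): Saa1, Saa2, Saa3, Hpx, Lcn2, Orm2 and Crp. Those of Saa1, Saa2, Lcn2 and Orm2 are shown because these 4 genes had among the steepest differences between groups and each holds a match to the C/EBP motif TTGCNNAA, marked in capitals. They read 5′ to 3′ on the strand of the gene, from chr7:46742981-46743230 (minus strand) for Saa1, chr7:46751583-46751832 (plus) for Saa2, chr2:32387740-32387989 (minus) for Lcn2 and chr4:63362199-63362448 (plus) for Orm2.
Saa1: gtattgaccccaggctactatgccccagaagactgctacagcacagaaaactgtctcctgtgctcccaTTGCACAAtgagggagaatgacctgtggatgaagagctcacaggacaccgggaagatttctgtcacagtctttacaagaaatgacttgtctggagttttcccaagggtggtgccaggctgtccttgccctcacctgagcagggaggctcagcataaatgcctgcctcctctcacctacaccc
Saa2: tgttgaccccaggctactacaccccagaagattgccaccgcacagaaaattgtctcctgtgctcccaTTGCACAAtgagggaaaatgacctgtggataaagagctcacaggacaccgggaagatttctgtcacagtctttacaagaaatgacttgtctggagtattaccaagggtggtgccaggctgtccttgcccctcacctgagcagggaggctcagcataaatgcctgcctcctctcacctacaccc
Lcn2: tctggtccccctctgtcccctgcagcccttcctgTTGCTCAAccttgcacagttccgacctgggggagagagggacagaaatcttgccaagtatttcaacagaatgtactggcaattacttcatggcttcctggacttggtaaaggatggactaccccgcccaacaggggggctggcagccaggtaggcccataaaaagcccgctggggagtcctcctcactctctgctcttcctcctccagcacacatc
Orm2: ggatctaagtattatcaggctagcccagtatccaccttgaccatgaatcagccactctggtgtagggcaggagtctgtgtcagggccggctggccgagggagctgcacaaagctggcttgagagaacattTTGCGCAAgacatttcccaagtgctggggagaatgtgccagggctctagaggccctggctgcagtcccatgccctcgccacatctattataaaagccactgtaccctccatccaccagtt
The motif, searched on both strands, was found in 6 of the 7 windows, all but that of Crp, and in 9.56% of 32851 RefSeq windows of the same length. The windows of Saa1 and Saa2 are near copies (94.8% identical), so the 7 are not independent cases. It lay 182 to 175 bases before the start in Saa1, 183 to 176 in Saa2, 216 to 209 in Lcn2 and 120 to 113 in Orm2. Of the other motifs searched, TTCNNNGAA (STAT), CTGGGAA (interleukin 6 response) and the NF-kB motif were in none of the 7, against 7.02%, 9.10% and 0.356% of all windows. TATAAA was in 2, Orm2 and Crp, against 12.4% of all windows. A match is a run of letters and not a measured binding site.

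The Saa1 and Saa2 windows were identical at 238 of 251 aligned positions (94.8%), whereas Saa1 and Saa3 shared 48.9%. The transcripts of Saa1 and Saa2 were 93.9% identical and those of Orm1 and Orm2 91.0%, over the whole of each first-listed coding transcript in GENCODE M21. The sources used here do not say how reads that fit more than 1 copy were counted, so the split of counts within each pair is uncertain.

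Levels between genes were compared in TPM, which is scaled for transcript length, and groups were compared in CPM scaled by TMM. Hpx, the haem-binding hemopexin, was the highest of the 10 in all 4 groups (3735 ± 171, 7705 ± 1206, 15326 ± 2513 and 9978 ± 1534 TPM, SD, n = 6). Orm1 (1990 ± 192 TPM) exceeded Hp (888 ± 213) in wild-type controls, and Hp exceeded Orm1 in mean level in the other 3 groups. Saa3 was the lowest in all 4 groups, at 2.81 ± 1.17, 5.16 ± 2.04, 2.64 ± 1.95 and 5.65 ± 1.76 TPM. Saa1 and Saa2, at 5.37 and 3.19 TPM in wild-type controls, were also near the bottom of the order there.

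**Figure D1:**
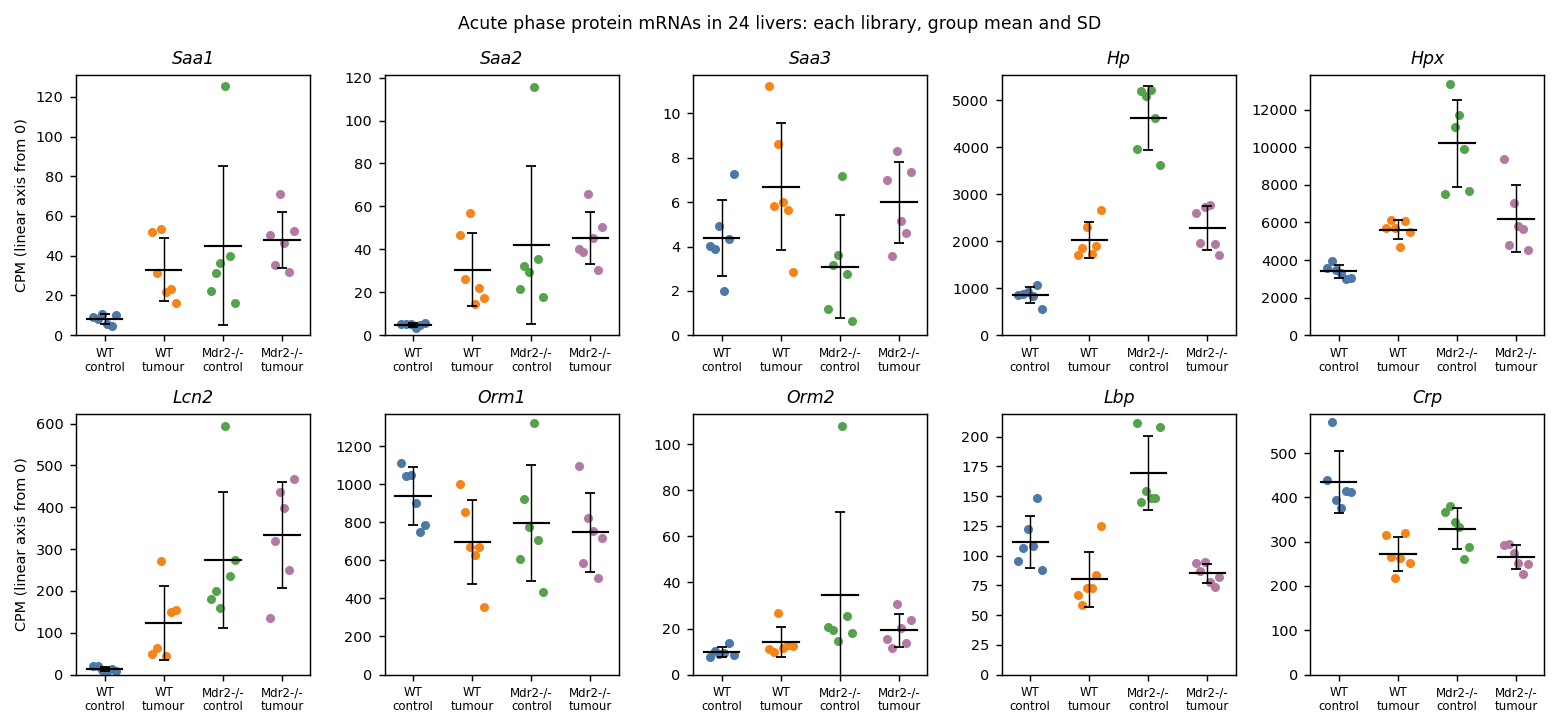
CPM (linear axes from 0) of the 10 acute phase genes in the 24 libraries, 1 panel per gene and 1 point per library, with the mean and SD of the 6 libraries of a group. The lower SD bar of Orm2 in Mdr2-/- controls runs below the axis. Hp separates wild-type controls, Mdr2-/- controls and the 2 tumour groups without overlap between the 3 levels, whereas Orm1 and Saa3 overlap in all 4 groups.

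The summed level of the 10 genes was lowest in wild-type controls and highest in Mdr2-/- controls. It was 6900 ± 419 TPM in wild-type controls (6118 to 7223), 12534 ± 1925 in wild-type tumour livers, 24847 ± 3860 in the controls without Mdr2 and 16503 ± 1936 in the Mdr2-/- tumour group (SD, n = 6). As a share of all TPM this was 0.690%, 1.25%, 2.48% and 1.65%. The share was higher in wild-type tumour than wild-type control livers, lower in Mdr2-/- tumour than Mdr2-/- control livers and higher in Mdr2-/- than wild-type controls, each without overlap (2-sided exact permutation test, 6 against 6, p = 0.002165, the smallest this design allows, adjusted p = 0.006495 over 12 tests). It was also higher in Mdr2-/- than wild-type tumour livers, with overlap (exact permutation p = 0.010823, adjusted p = 0.021646). As a share of counts in place of TPM, the differences kept their direction, but Mdr2-/- tumour and Mdr2-/- control libraries overlapped. Their shares of counts were 0.944% to 1.41% and 1.25% to 2.07% (exact permutation p = 0.017316, adjusted p = 0.0292). Hpx and Hp made up 67.0%, 82.2%, 88.0% and 81.5% of the sum, so it describes mainly these 2 genes. The sum of 23 other positive acute phase genes had another order (30151, 21841, 32341 and 21330 TPM).

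**Figure D2:**
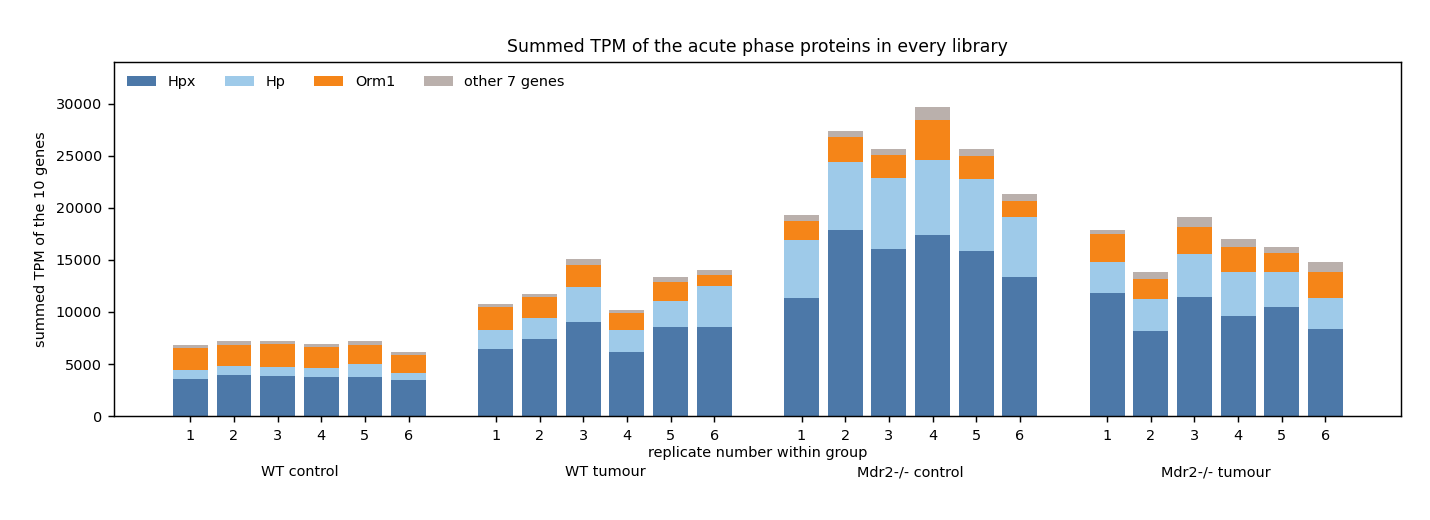
Summed TPM of the 10 acute phase genes in each library as stacked bars from 0, by group and replicate, split into Hpx, Hp, Orm1 and the other 7 genes. Mdr2-/- controls have the tallest bars (24847 TPM on average) and wild-type controls the shortest (6900 TPM), and Hpx is the largest part of every bar.

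Gene by gene, the genotype comparison in control livers moved the most members. Relative to wild-type controls, 7 of the 10 were higher in Mdr2-/- controls (Saa1, Saa2, Hp, Hpx, Lcn2, Orm2 and Lbp) and 1 was lower (Crp) at an edgeR adjusted p under 0.05, against 50.5% of all genes tested called, 26.2% higher and 24.3% lower. The libraries of 6 of the 7 did not overlap with wild-type controls, Lbp being the exception, against 24.3% of all genes without overlap, 13.7% higher and 10.6% lower. Tumour in wild-type livers went with 5 members higher (Saa1, Saa2, Hp, Hpx and Lcn2; 16.9% of all genes) and 2 lower (Lbp and Crp; 11.5%), with 28.4% of all genes called. The same 5 did not overlap between wild-type tumour and control libraries (7.27% of all genes, higher), nor did Crp (3.49%, lower), against 10.8% of all genes in either direction. Both comparisons use the same wild-type control libraries, so they are not independent of each other.

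Tumour in Mdr2-/- livers gave other counts. None of the 10 was called higher (17.9% of all genes) and 3 were lower, Hp, Hpx and Lbp (17% of all genes), with 34.8% of all genes called. At an unadjusted p under 0.05 it was 1 higher and 5 lower, and DESeq2 called 1 higher and 4 lower. The share of counts from a list of mainly nuclear non-coding RNAs (Gm26917, Malat1, Neat1, Rmrp, Rn7sk, Rpph1 and Xist) moved with this comparison, without overlap. The controls held 1.74% to 4.29% and the tumour-bearing livers 4.60% to 7.95%. In these libraries the share can hardly be told apart from tumour in Mdr2-/- livers. A call for that comparison, here and below, kept or lost with the share as covariate does not separate the 2. With that share as a covariate the estimates were -0.96 for Saa1 and -0.71 for Saa2, neither called, and the call was kept for Hp (-0.92) and Hpx (-1.01) and lost for Lbp (-0.57, edgeR adjusted p = 0.0616), while Orm1 was called lower (-0.92). Hp and Lbp did not overlap between the 2 groups, being lower (7.62% of all genes), and no member was higher without overlap (7.38%, or 15% in either direction). The tumour effect itself differed between genotypes for 5 members, Saa1, Saa2, Hp, Hpx and Lcn2, all in the direction of a smaller or opposite effect in Mdr2-/- livers (25.3% of all genes called, 13.4% in that direction and 11.9% in the other). None was called in the other direction, also at an unadjusted p under 0.05 and by DESeq2. Between the tumour-bearing groups 1 member, Lcn2, was higher in Mdr2-/- livers (7.13% of all genes) and none lower (4% of all genes; none at an unadjusted p under 0.05 or by DESeq2), with 11.1% of all genes called. All 10 overlapped there, against 3.69% of all genes without overlap (2.3% higher and 1.39% lower). The median log2 fold change of the 10 was 0.67 for tumour in wild-type livers (0.03 over all genes), -0.20 for tumour in Mdr2-/- livers (0.04) and -1.41 for their difference (-0.04). It was 1.71 (0.03) between the genotypes without tumour and 0.16 (-0.02) between them with tumour.

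**Figure D3:**
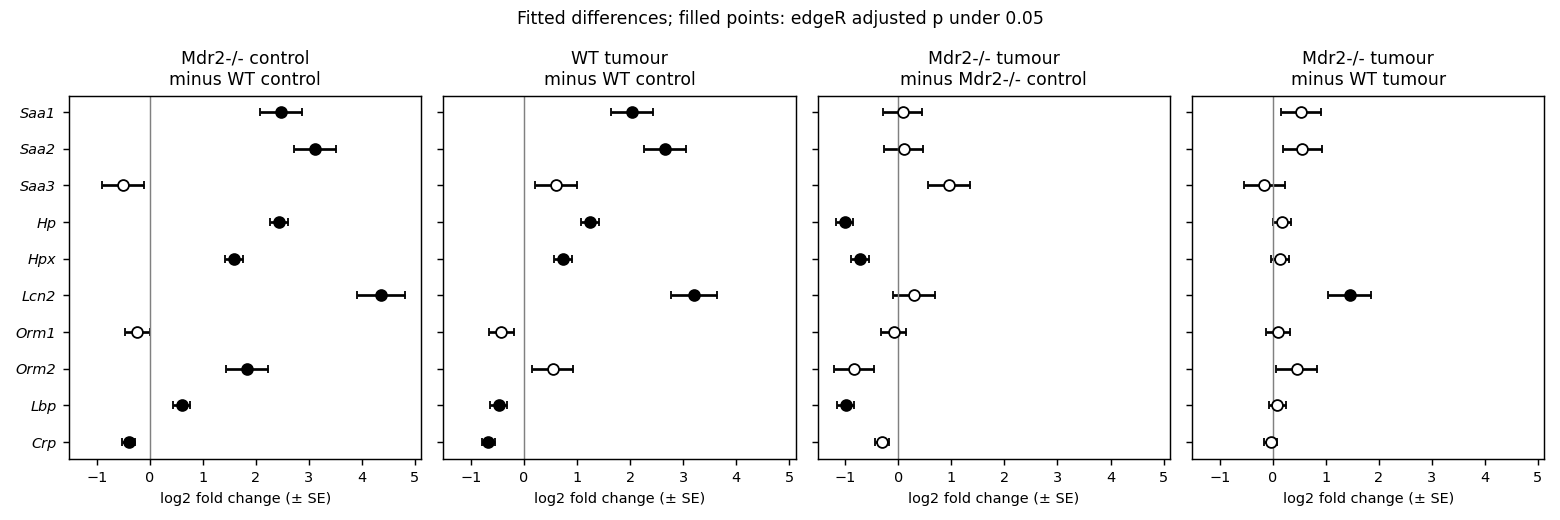
Log2 fold change with SE bars of each acute phase gene in 4 comparisons of 2 groups, with filled points where the edgeR adjusted p was under 0.05. Lcn2 lies farthest right between control genotypes (4.36), and Hp and Hpx change side between tumour in wild-type (1.24 and 0.73) and in Mdr2-/- livers (-1.01 and -0.72).

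Serum amyloid A1 and A2, lipoproteins of the acute phase carried on HDL, rose together. Saa1 ran from 4.88 to 10.7 CPM (median 8.67) in wild-type controls, 16.4 to 53.2 (27.4) in wild-type tumour livers, 16.02 to 125 (33.9) in the controls without Mdr2 and 31.6 to 70.9 (48.3) in the Mdr2-/- tumour group. Wild-type controls lay below every other library, and the other 3 groups overlapped. Saa1 was higher with tumour in wild-type livers (log2 fold change 2.03 ± 0.39 SE, edgeR adjusted p = 4.26e-04) and in Mdr2-/- controls (2.48 ± 0.40, adjusted p = 2.4e-05). In Mdr2-/- livers the tumour effect was 0.08 ± 0.37 (adjusted p = 0.882), and the difference between the tumour effects was -1.95 ± 0.54 (adjusted p = 0.0115).

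Saa2 showed the same order with larger differences. Its CPM ran from 3.32 to 5.54 (median 5.19), 14.5 to 56.9 (24.3), 17.9 to 116 (30.9) and 30.3 to 65.6 (42.7) in the 4 groups, and again no wild-type control reached another group. Saa2 was higher by 2.66 ± 0.39 with tumour in wild-type livers (edgeR adjusted p = 2.11e-05) and by 3.12 ± 0.40 in Mdr2-/- controls (1.25e-06). With tumour in Mdr2-/- livers it gave 0.10 ± 0.36 (0.855), a difference of -2.56 ± 0.53 (0.00162) from wild-type. Mdr2-/- control replicate 4 was far above the rest of its group for both genes (Saa1 125 against 39.8 CPM in the next library, Saa2 116 against 35.7), and the calls stayed without it. The estimates without that library were 1.85 for Saa1 and 2.50 for Saa2 between controls, 0.71 for both with tumour in Mdr2-/- livers (not called), and -1.32 and -1.95 for the differences.

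The ratio of Saa1 to Saa2 was not constant. In TPM it was 1.68 ± 0.34 in wild-type controls and 1.15 ± 0.21, 1.07 ± 0.12 and 1.07 ± 0.11 in the other 3 groups. The log2 ratio was lower by 0.54 with tumour in wild-type livers, written first minus second as -0.54 (exact permutation adjusted p = 0.0292), and by 0.63 in Mdr2-/- controls (-0.63, adjusted p = 0.0208). The 2 copies are near-identical, so this ratio depends on how shared reads were assigned.

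Saa3, the form made in mice mainly outside hepatocytes, including by macrophages, did not follow them. It ran from 2.00 to 7.27 CPM (median 4.17), 2.86 to 11.2 (5.91), 0.632 to 7.18 (2.96) and 3.56 to 8.29 (6.07), and all groups overlapped. No comparison was called by edgeR, the nearest being tumour in Mdr2-/- livers at 0.95 ± 0.39 (adjusted p = 0.0611), which DESeq2, other scalings and the TPM scales did call, as did edgeR without Mdr2-/- control replicate 4 (1.39), Mdr2-/- tumour replicate 2 or wild-type tumour replicate 6. Without Mdr2-/- control replicate 4 Saa3 was also called lower in Mdr2-/- than wild-type controls (-0.94, edgeR adjusted p = 0.0424). Macrophage and monocyte markers, by contrast, were higher in Mdr2-/- controls for 10 of 10 genes, against 26.2% of all genes. Their summed level was 182, 418, 856 and 1057 TPM in the 4 groups.

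Haptoglobin (Hp) binds free haemoglobin and hemopexin (Hpx) binds free haem. Hp ran from 569 to 1075 CPM (median 871) in wild-type controls, 1711.3 to 2667 (1876) in wild-type tumour livers, 3620 to 5232 (4862) in the controls without Mdr2 and 1709 to 2773 (2291) in the Mdr2-/- tumour group. Both tumour groups thus lay between the 2 control groups, overlapping each other but neither control. Hp was higher by 1.24 ± 0.17 with tumour in wild-type livers (edgeR adjusted p = 5.19e-06) and lower by -1.01 ± 0.17 with tumour in Mdr2-/- livers (1.24e-04), a difference of -2.26 ± 0.23 (8.43e-07). The genotypes differed by 2.43 ± 0.17 in controls (1.19e-10), and in tumour-bearing livers by 0.18 ± 0.16 (0.56).

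Hpx had the same shape with smaller steps. Its CPM ran from 3014 to 3961 (median 3380), 4679 to 6110 (5686), 7526 to 13352 (10493) and 4521 to 9391 (5752), so that Mdr2-/- tumour libraries reached into the range of the Mdr2-/- controls. Hpx was higher with tumour in wild-type livers (0.73 ± 0.17, edgeR adjusted p = 0.00224), lower with tumour in Mdr2-/- livers (-0.72 ± 0.17, 0.00306) and higher in Mdr2-/- than wild-type controls (1.59 ± 0.17, 1.01e-07). The tumour effects differed by -1.45 ± 0.24 (2.29e-04), and tumour-bearing livers of the 2 genotypes by 0.14 ± 0.17 (0.66).

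Hepatocyte markers moved beside these values. Of 10, 7 were lower with tumour in each genotype and none was higher. Of all genes, 11.5% were lower and 16.9% higher in wild-type livers, and 17% and 17.9% in Mdr2-/- livers. Hp and Hpx were thus higher in wild-type tumour livers while Alb was lower (-0.78 ± 0.17, edgeR adjusted p = 0.00159). In bulk tissue, fewer hepatocytes and less RNA per hepatocyte cannot be told apart, and the part of the hepatocyte markers in the lower Hp and Hpx of Mdr2-/- tumour livers was not tested.

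Lcn2 encodes lipocalin 2, which binds bacterial siderophores and is made by injured epithelium and neutrophils as well as hepatocytes. It had the largest difference of the 10. Lcn2 ran from 8.45 to 19.8 CPM (median 11.98) in wild-type controls, 45.5 to 272 (106) in wild-type tumour livers, 160 to 594 (218) in the controls without Mdr2 and 135 to 468 (358) in the Mdr2-/- tumour group. No wild-type control reached another group. Lcn2 was 20.6-fold higher in Mdr2-/- than wild-type controls (log2 fold change 4.36 ± 0.46, edgeR adjusted p = 6.46e-08) and higher with tumour in wild-type livers (3.20 ± 0.44, 7.06e-06). In Mdr2-/- livers the tumour effect was 0.29 ± 0.40 (0.587), and it differed from that in wild-type livers by -2.91 ± 0.58 (0.00121). In tumour-bearing livers Lcn2 was higher in Mdr2-/- mice (1.45 ± 0.41, 0.0206), a call lost without Mdr2-/- tumour replicate 6, without wild-type tumour replicate 2 or 4, and without the filter on low counts.

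Wild-type tumour livers fell into a lower and a higher set for Lcn2. Replicates 1, 2 and 4 had 48.6, 62.8 and 45.5 CPM, and replicates 3, 5 and 6 had 272, 150 and 155. The summed level of 10 cholangiocyte markers in the same libraries was 160, 356 and 245 TPM in the first 3 and 1941, 1677 and 892 in the others. Over the groups that sum averaged 75.2 TPM (52.6 to 115) in wild-type controls, 879 (160 to 1941) in wild-type tumour livers, 181 (82.3 to 402) in the controls without Mdr2 and 3477 (1231 to 6579) in the Mdr2-/- tumour group. All 6 Mdr2-/- controls had more Lcn2 in CPM than 5 of the 6 wild-type tumour livers, though in TPM replicate 3 (132) lay below wild-type tumour replicate 6 (139). The cholangiocyte sum of these controls lay in or below the range of those livers, and the part of duct cells in the Lcn2 values was not tested. Neutrophil markers were low (summed level 11.3, 20.3, 22.8 and 36.5 TPM), with 7 of 12 passing the filter on counts. Of these 7, 3 were higher in Mdr2-/- controls, against 26.2% of all genes.

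Orosomucoids (alpha-1-acid glycoproteins) bind drugs and other small molecules in plasma. Orm1, the main form, was not called in any of the 5 comparisons by edgeR. It ran from 746 to 1111 CPM (median 973), 356 to 1000 (669), 435 to 1321 (743) and 509 to 1096 (734), and all groups overlapped. Its largest estimate was -0.43 ± 0.24 for tumour in wild-type livers (adjusted p = 0.176), but Orm1 was called lower with tumour in both genotypes when nuclear non-coding RNA share was a covariate.

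The minor form Orm2 did differ. It ran from 7.63 to 13.7 CPM (median 9.03), 9.59 to 26.9 (11.96), 14.6 to 108 (20.1) and 11.4 to 30.8 (17.9), and every Mdr2-/- control lay above every wild-type control. Orm2 was higher in Mdr2-/- controls (1.83 ± 0.40, edgeR adjusted p = 5.74e-04), and still called at 1.03 without replicate 4, whose 108 CPM compare with 25.4 in the next library. With tumour it gave 0.54 ± 0.39 in wild-type (0.318) and -0.84 ± 0.38 in Mdr2-/- livers (0.0871), with a difference of -1.38 ± 0.55 (0.0638), which DESeq2 called. Without Mdr2-/- tumour replicate 3 or Mdr2-/- control replicate 3 edgeR called both the tumour effect in Mdr2-/- livers (-1.03 in the first case) and the difference (-1.57 and -1.54), and without Mdr2-/- control replicate 2 or 6 or wild-type control replicate 5 the difference alone. Without Mdr2-/- control replicate 4 the tumour effect was -0.037 (edgeR adjusted p = 0.922) and the difference -0.58 (0.217). The Orm1 to Orm2 ratio in TPM was 102 ± 30.4, 56.6 ± 28.4, 32.3 ± 15.3 and 42.2 ± 16.3. Its log2 value was lower in Mdr2-/- than wild-type controls without overlap (-1.75, exact permutation adjusted p = 0.006495) and lower with tumour in wild-type livers (-0.96, adjusted p = 0.0292).

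Lbp, the protein that hands bacterial lipopolysaccharide to Cd14, was lower with tumour in both genotypes. It ran from 88.2 to 148 CPM (median 107), 58.5 to 125 (72.9), 145 to 211 (152) and 74.0 to 94.5 (84.8). Mdr2-/- tumour livers lay below every Mdr2-/- control, while wild-type tumour and control livers overlapped. Lbp was lower by -0.99 ± 0.16 with tumour in Mdr2-/- livers (edgeR adjusted p = 1.24e-04). In wild-type livers the effect was -0.48 ± 0.16 (adjusted p = 0.0273), and Lbp was higher in Mdr2-/- controls (0.60 ± 0.16, 0.00344). The tumour effects differed by -0.52 ± 0.23 (0.0936). The wild-type call was lost on both TPM scales and with library totals in place of TMM (-0.19). It was also lost without wild-type tumour replicate 1, 2, 3 or 4 or wild-type control replicate 3 or 5, at estimates of -0.46 to -0.37. The Mdr2-/- call was lost when nuclear non-coding RNA share was a covariate (-0.57, adjusted p = 0.0616).

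Crp, C-reactive protein, was highest in healthy liver on the TMM scale. It ran from 377 to 571 CPM (median 413), 219 to 320 (265), 262 to 381 (339) and 227 to 295 (264), with wild-type tumour livers below every wild-type control. In TPM these 2 groups overlapped, with wild-type tumour replicate 5 (197) above wild-type control replicate 4 (187). Crp was lower with tumour in wild-type livers (-0.67 ± 0.13, edgeR adjusted p = 3.69e-04), and with tumour in Mdr2-/- livers it gave -0.31 ± 0.13 (0.0595). Mdr2-/- controls were lower than wild-type controls on the TMM scale (-0.40 ± 0.13, 0.012), but the estimate was 0.06 and not called on the log2 TPM scales and -0.10 and not called with library totals, and the call was also lost without wild-type control replicate 2 (-0.29), whose 571 CPM compare with 440 in the next library.

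The other acute phase genes did not move as a block with these 10. Of 23 further positive acute phase genes, 6 were higher and 9 lower in Mdr2-/- controls, 3 higher and 9 lower with tumour in wild-type livers, and 2 higher and 12 lower with tumour in Mdr2-/- livers (edgeR adjusted p under 0.05; list medians -0.48, -0.41 and -0.54). With library totals in place of TMM these became 8 and 6, 5 and 6, and 3 and 6. On the TMM scale, 26.2% of all genes were higher and 24.3% lower in Mdr2-/- controls. With tumour, the shares of all genes were 16.9% and 11.5% in wild-type livers and 17.9% and 17% in Mdr2-/- livers. The endotoxin co-receptor gene Cd14 (2.96 ± 0.37 in Mdr2-/- controls, 1.84 ± 0.36 with tumour in wild-type livers) and Il1rn, the interleukin 1 receptor antagonist (2.58 ± 0.28 and 1.65 ± 0.27), were among those higher in both. Their tumour effects were also smaller in Mdr2-/- livers (difference -2.08 ± 0.49 for Cd14 and -1.94 ± 0.37 for Il1rn). The fibrinogen genes Fga and Fgg were lower in these 3 comparisons, and Serpina3m, a serine protease inhibitor gene, was lower in Mdr2-/- controls (-1.83 ± 0.23). Complement factor B (Cfb) was higher in Mdr2-/- controls (0.58 ± 0.17) and lower with tumour in Mdr2-/- livers (-1.02 ± 0.17). A2m was higher with tumour in both genotypes (1.57 ± 0.49 in wild-type and 2.74 ± 0.51 in Mdr2-/- livers). The wild-type A2m call was lost without wild-type tumour replicate 3 (1.22). It was also lost without the filter on low counts (1.56) and with the number in the library title as covariate (1.53). This covariate marked each library as above or below a fixed title number. Every wild-type tumour library lay above it and most wild-type controls lay below it. In wild-type livers the mark can hardly be told apart from tumour. A call for tumour in wild-type livers, above or below, kept or lost with this covariate does not separate them.

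Negative acute phase genes are those whose products fall in inflammation. Of 11, 5 were lower with tumour in wild-type and 9 in Mdr2-/- livers, and none was higher, at an edgeR adjusted p under 0.05. Over all genes, 11.5% were lower and 16.9% higher in wild-type livers, and 17% and 17.9% in Mdr2-/- livers. With library totals 1 of the 11 was higher and 4 lower in wild-type livers. Albumin (Alb) was lower by -1.10 ± 0.17 with tumour in Mdr2-/- livers, and Serpina6, corticosteroid-binding globulin, by -1.49 ± 0.26, a call lost with nuclear non-coding RNA share as a covariate (-1.06, edgeR adjusted p = 0.072). Between control livers 4 of the 11 were lower and 2, Trf (0.84 ± 0.15) and Serpina6 (0.64 ± 0.26), higher in Mdr2-/- mice. Of all genes, 24.3% were lower and 26.2% higher there. Alb was among the 4 at -0.46 ± 0.17 (adjusted p = 0.0296), a call lost with library totals (-0.16), on the log2 TPM scales and without any of 5 single libraries, down to -0.39 without wild-type control replicate 4. The Serpina6 call was lost without any of 7 single libraries, down to 0.53 without Mdr2-/- control replicate 1.

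**Figure D4:**
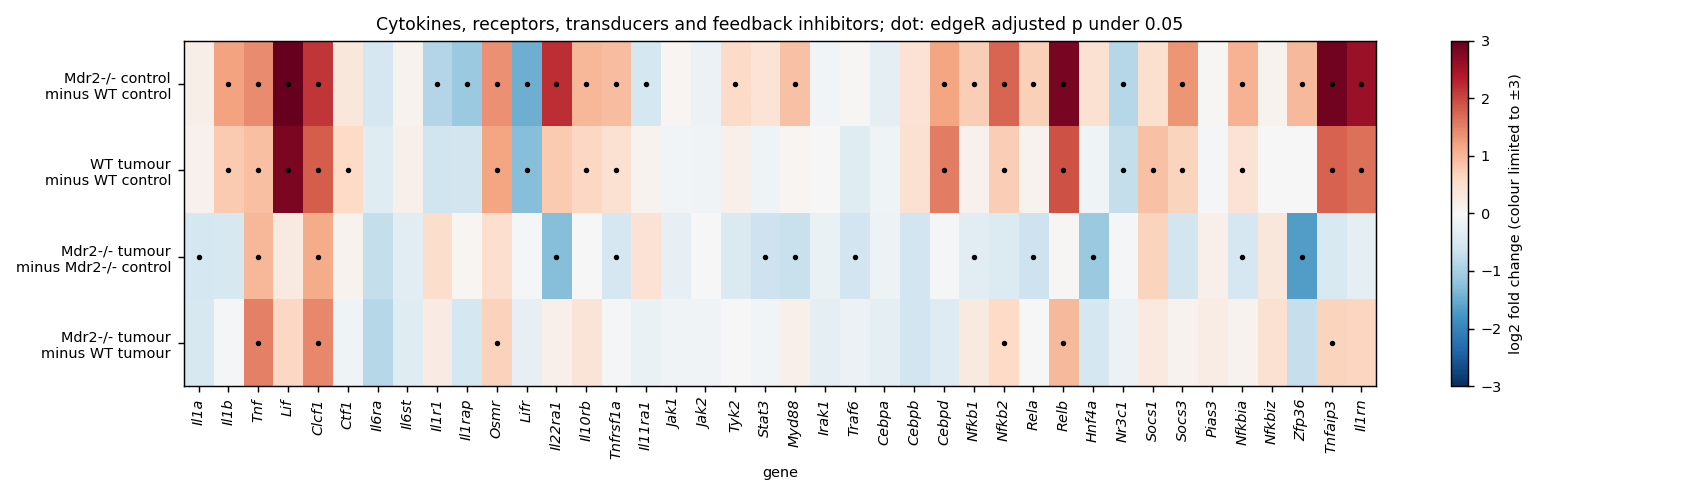
Log2 fold changes, as colour limited to 3 in either direction, of the tested cytokines, receptors, transducers and feedback inhibitors (columns) in 4 comparisons of 2 groups (rows), with dots where the edgeR adjusted p was under 0.05. Relb, Tnfaip3 and Il22ra1 are higher in Mdr2-/- controls (2.84, 2.89 and 2.21), and the row for tumour in Mdr2-/- livers holds more dots on blue (lower) than on red (higher) cells.

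Counts in the pathway lists stand against 26.2% of all genes higher and 24.3% lower in Mdr2-/- controls, 16.9% and 11.5% with tumour in wild-type livers, and 17.9% and 17% with tumour in Mdr2-/- livers. Among the inducing cytokines, 6 of 10 passed the filter on counts. Il6 had a mean of at most 0.136 CPM in any group and Il22 had no count in any library. Of the 6, 4 were higher in Mdr2-/- controls (Il1b, Tnf, Lif and Clcf1) and 5 with tumour in wild-type livers. Il1b was higher by 1.22 ± 0.28 in Mdr2-/- controls and by 0.78 ± 0.28 with tumour in wild-type livers, and Tnf by 1.43 ± 0.31 and 0.91 ± 0.32. Tumour in Mdr2-/- livers went with higher Tnf (0.99 ± 0.27) and Clcf1 (1.11 ± 0.34) and lower Il1a (-0.52 ± 0.16, adjusted p = 0.0158), a call lost with library totals and upper-quartile factors. The wild-type tumour calls for Il1b and Tnf were lost when single libraries were left out, down to 0.59 and 0.67 without wild-type tumour replicate 3. With nuclear non-coding RNA share as a covariate they were 0.66 and 0.69 and not called, and the Mdr2-/- tumour calls for Tnf (0.41, edgeR adjusted p = 0.527) and Clcf1 (1.05, 0.185) were lost. The Clcf1 and Il1a calls with tumour in Mdr2-/- livers were also lost without Mdr2-/- tumour replicate 6 (0.90 and -0.45). For Tnf, the wild-type tumour call was lost too without the filter on low counts (0.91) and with the number in the library title as covariate (1.02).

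Of 10 cytokine receptors, 4 were higher and 4 lower in Mdr2-/- controls, where 50.5% of all genes were called. Il22ra1, the interleukin 22 receptor chain of hepatocytes, was higher by 2.21 ± 0.31 there and lower by -1.28 ± 0.30 with tumour in Mdr2-/- livers, the latter lost with nuclear non-coding RNA share as a covariate (-0.50, edgeR adjusted p = 0.404). Osmr, the oncostatin M receptor, was higher by 1.38 ± 0.24, whereas Lifr, the leukaemia inhibitory factor receptor, was lower by -1.46 ± 0.18. With tumour in wild-type livers Osmr was also higher (1.19 ± 0.24) and Lifr lower (-1.28 ± 0.18).

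Of 16 signal transducers and transcription factors, 7 were higher and 1, the glucocorticoid receptor gene Nr3c1, lower in Mdr2-/- controls. NF-kB subunit genes led: Relb by 2.84 ± 0.25 and Nfkb2 by 1.74 ± 0.17. With tumour in wild-type livers 3 were higher, Relb (1.92 ± 0.25), Nfkb2 (0.74 ± 0.17) and Cebpd (1.55 ± 0.23), a C/EBP factor gene of the acute phase. With tumour in Mdr2-/- livers none was higher and 6 were lower, Stat3 and Hnf4a among them (Hnf4a -0.26 and not called with the non-coding RNA covariate), which became 1 with library totals, and the count of higher genes in Mdr2-/- controls became 11. The tumour effects differed for Relb (-1.88 ± 0.33), Nfkb2 (-1.14 ± 0.24) and Cebpd (-1.57 ± 0.31), as they did for the 5 acute phase genes above.

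Feedback inhibitors followed. Of 8, 5 were higher in Mdr2-/- controls and 5 with tumour in wild-type livers, and none was higher and 2 lower with tumour in Mdr2-/- livers (3 higher and 1 lower with library totals). Tnfaip3, which restrains NF-kB, was higher by 2.89 ± 0.23 in Mdr2-/- controls and by 1.78 ± 0.22 with tumour in wild-type livers. Socs3, which restrains Jak and Stat3 signalling, was higher by 1.33 ± 0.24 and 0.66 ± 0.24. The latter call was lost without the 2 libraries that stood apart (0.61, adjusted p = 0.0623) and without any of 8 single libraries, down to 0.49 without wild-type tumour replicate 5. Zfp36, which speeds decay of cytokine mRNA, was lower with tumour in Mdr2-/- livers (-1.67 ± 0.36), a call lost with nuclear non-coding RNA share as a covariate (-0.46, edgeR adjusted p = 0.542).

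Of 16 receptors and binding partners of the members, 7 were higher and 2 lower in Mdr2-/- controls. Cd163, the macrophage receptor for haptoglobin with haemoglobin, was lower in Mdr2-/- livers with and without tumour (-2.06 ± 0.35 and -2.09 ± 0.34), opposite to Hp in controls. Tlr2, which senses bacterial lipoproteins and can bind serum amyloid A, was higher by 2.58 ± 0.18 in Mdr2-/- controls. Scarb1, an HDL receptor, was higher by 0.86 ± 0.20 there and lower by -1.07 ± 0.20 with tumour in Mdr2-/- livers, the latter lost with nuclear non-coding RNA share as a covariate (-0.35, edgeR adjusted p = 0.21). Lrp2 (megalin), an uptake receptor for lipocalin 2 among other ligands, was higher with tumour in Mdr2-/- livers by 5.40 ± 0.58, from 0.03 to 1.43 TPM.

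Within groups, libraries varied for some members together. After the mean of its group was taken from each library's log2 CPM, Pearson's r over the 24 libraries was 0.94 for Saa1 with Saa2, 0.88 for Saa1 with Saa3 and 0.81 for Saa2 with Saa3. Saa1 with Orm1 gave 0.78, and Orm1 with Lbp gave -0.55. These values are descriptions over libraries that share depth and composition effects. They include Mdr2-/- control replicate 4, the highest of its group for Saa1, Saa2 and Saa3, and its part in them was not tested. How reads shared by Saa1 and Saa2 were counted is not known. Among 13369 genes at a mean of at least 1 TPM, the genes most like Lcn2 were Cyb561 (r = 0.94), Tead2 (0.92) and Fbn1 (0.92). Those most like Orm1 were the ribosomal protein genes Rps25 (0.93), Rps24 (0.92) and Rpl3 (0.92). Saa3 was most like the leukocyte gene Cd53 (0.85) and next like Gm26917 (0.81), which is in the nuclear non-coding RNA list above. Hpx was most like Tfrc, the transferrin receptor gene (0.85), Saa2 most like Ntpcr (0.86) and Saa1 most like Gatm (0.84). Hp was most like Lsm2 (0.82), Orm2 most like Ms4a4a (0.85), Lbp most like Fn1 (0.87) and Crp most like Fam120b (0.82).

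**Figure D5:**
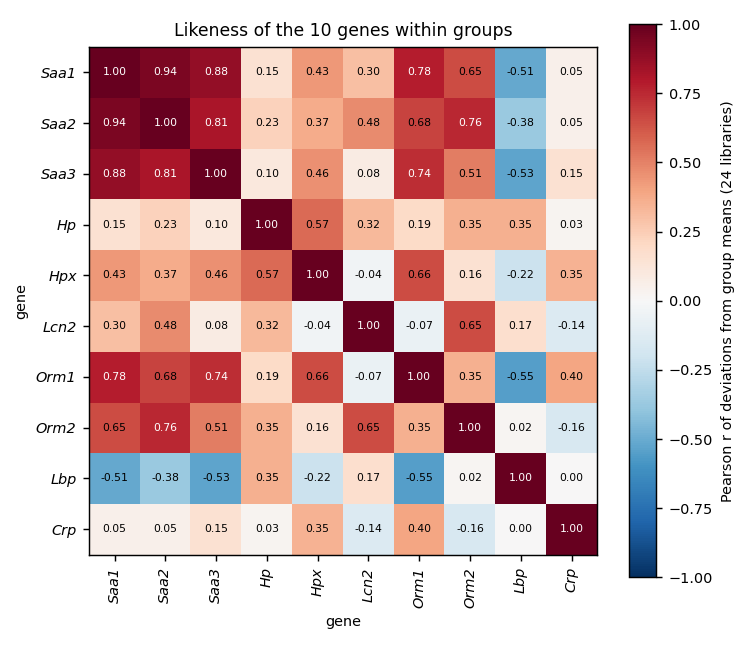
Pearson's r between the 10 acute phase genes over 24 libraries after removal of group means. The 3 serum amyloid A genes form the block of highest values (0.81 to 0.94), and Lbp is negative against Orm1 (-0.55) and Saa3 (-0.53).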

How the data were processed

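Liver RNA was depleted of ribosomal RNA and sequenced as paired-end NovaSeq libraries made with the NEBNext Ultra II kit, per the labels' protocols. The authors deposited a table of raw read counts per gene and a table of TPM for the same genes, per the file headers. The submitters' processing notes name build mm39 and DESeq2, without a version. For the aligner, the counting tool, the annotation and the strand setting, the entry is: not given in the sources used here. Rows without a symbol (174 genes) held 0.0111% to 0.0178% of counts. They went through the same filter and fit, but none was named.

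Counts were filtered (filterByExpr, minimum count 10) and scaled by TMM, and 1 model with a mean per group was fitted over all 24 libraries with edgeR 4.0.16 (robust quasi-likelihood, 2-sided). P-values were adjusted by Benjamini-Hochberg over 17216 genes and called under 0.05. SE is the absolute log2 fold change over the square root of F. The biological coefficient of variation was 0.272. Summed shares and ratios were tested by exact permutation (scipy 1.17.1). Alternatives used DESeq2 1.42.0 and limma 3.58.1 on log2(TPM + 1) and log2(TPM + 0.1). Likeness used log2(CPM + 0.5). The fit was tested on simulated data. Over 60 pairs of libraries of the same group the chi-square per gene was 25.58 to 259.8, so no library was a repeat of another in its group. Libraries of different groups were not compared in this way.

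The members, lists and marker sets were chosen with earlier results of these data known, and 1 gene of the transducer list is not reported here. From each other list a rule picked up to 4 called genes with the largest fold change at 1 TPM or more. It also picked the largest call in the opposite direction and the genes most like each member. Of its picks, the text above leaves out Hamp2 (-2.54 between tumour-bearing livers), Igfals (-1.46, tumour in wild-type livers) and Ahsg (-1.06, tumour in Mdr2-/- livers). Also left out are Fetub (-0.80 between controls) and, for the difference of the tumour effects, Fgl1 (1.29) and Il1r1 (1.12). Calls were kept in 35 of 36 alternatives for Ahsg, 33 of 35 for Fgl1 and 11 of 35 for Il1r1. Beyond the first gene, likeness is given only for Lcn2, Orm1 and Saa3. Fga, Fgg, Lif and Stat3 are named outside this rule, after their values were seen. Genes were matched to RefSeq windows by symbol.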

Additional observations from a re-analysis of the deposited data

Results flagged for a closer look

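Mdr2-/- control replicate 4 lay far above the other 5 libraries of its group for Saa1 (125 CPM, next 39.8), Saa2 (116, next 35.7), Lcn2 (594, next 273) and Orm2 (108, next 25.4). Wild-type tumour replicate 3 stood apart for Orm2 (26.9 CPM, next 12.9), and wild-type control replicate 2 for Crp (571, next 440). These are 6 of the 40 pairs of gene and group examined by Dixon's rule, the gap to the next library over the range of the group, on linear CPM. Chance marks about 1 in 20 only where values are normally distributed, so 6 of 40 cannot be read as an excess. The 4 values from Mdr2-/- control replicate 4 come from 1 library and are not independent of each other.

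The tumour effect in Mdr2-/- livers minus that in wild-type livers, tested as an interaction in edgeR with adjustment over all genes, was below 0 for Saa1 (-1.95), Saa2 (-2.56), Hp (-2.26), Hpx (-1.45) and Lcn2 (-2.91). For Hp and Hpx the 2 effects had opposite signs and were both called. For Saa1, Saa2 and Lcn2 the effect was called in wild-type livers and was between 0.08 and 0.29, not called, in Mdr2-/- livers.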

How the results depend on the processing

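Of 24 called results for single genes, 20 kept their call and direction in every one of the alternatives run. The exceptions were Lbp with tumour in wild-type livers (-0.65 to -0.19) and in Mdr2-/- livers, Crp between control livers, and Lcn2 between tumour-bearing livers. No paired analysis was possible because the labels number no replicates, and the replicate numbers used here pair nothing between groups. The median of all genes moved by up to 0.30 with library totals, by up to 0.12 with upper-quartile factors and by up to 0.42 on the log2(TPM + 0.1) scale, and the cause of the changes below was not tested.

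The count of members higher with tumour in Mdr2-/- livers rose from 0 to 1 (Saa3) with upper-quartile factors, library totals, DESeq2 and both TPM scales. The count lower with tumour in wild-type livers became 1, without Lbp, with library totals, no filter, both TPM scales, only the 12 libraries compared and the title number as covariate. The title number nearly coincided with tumour in wild-type livers, so calls kept or lost with it there do not separate them. Between controls the count lower became 0 with library totals, no filter and both TPM scales. Between tumour-bearing livers the count higher became 0 with no filter and 2, with Hpx, on both TPM scales.

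With single libraries left out, the counts for tumour in wild-type livers were 5 to 5 higher and 1 to 2 lower. For tumour in Mdr2-/- livers they were 0 to 1 higher and 3 to 4 lower. The difference gave 5 to 7 lower, controls 7 to 7 higher and 0 to 2 lower, and tumour-bearing livers 0 to 1 higher. Results that changed sign there, none of them called, ranged from -0.10 to 0.0099 for Crp, -0.015 to 0.23 for Hpx, -0.044 to 0.23 for Orm1 and -0.32 to 0.052 for Saa3 between tumour-bearing livers, and from -0.24 to 0.11 for Orm1, -0.10 to 0.71 for Saa1 and -0.064 to 0.71 for Saa2 with tumour in Mdr2-/- livers.

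Other sign changes were these. Upper-quartile factors gave 0.014 for Orm1 with tumour in Mdr2-/- livers and 0.012 for Crp between tumour-bearing livers. Library totals gave 0.13 for Orm1 with tumour in Mdr2-/- livers, 0.073 for Orm1 between controls, and 0.084 for Saa3 and 0.21 for Crp between tumour-bearing livers. The log2(TPM + 1) scale gave 0.065 for Orm1 with tumour in Mdr2-/- livers, 0.15 for Orm1 and 0.057 for Crp between controls, and 0.14 for Saa3 and 0.24 for Crp between tumour-bearing livers. The log2(TPM + 0.1) scale gave 0.065, 0.15, 0.058, 0.17 and 0.24 for the same results. The title number as covariate gave 0.0021 for Orm1 with tumour in Mdr2-/- livers, and -0.029 for Hpx and -0.13 for Orm1 between tumour-bearing livers. The share of nuclear non-coding RNA as covariate gave -0.96 for Saa1, -0.71 for Saa2 and -0.19 for Saa3 with tumour in Mdr2-/- livers. It gave -0.24 for Saa3 and -0.10 for Orm1 for the difference, 0.011 for Orm1 between controls and -0.092 for Orm1 between tumour-bearing livers. Without the 2 libraries that stood apart, Hpx gave -0.020 and Orm1 -0.18 between tumour-bearing livers. Of 98 called results of the named genes of other lists, 63 kept call and direction in every alternative. Of these 98, Alb between controls gave 0.001 on both TPM scales, and most losses with tumour in Mdr2-/- livers arose with the non-coding RNA covariate. At 16.4 counts per CPM in the shallowest library, only Saa3 neared the depth limit.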

Other observations

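Mdr2-/- control replicate 4 was the highest of its group for 7 of the 10 acute phase genes, against 19.1% of all genes tested. It was also the highest for 8 of 10 cholangiocyte and 8 of 10 macrophage and monocyte markers, and for 2 of 10 hepatocyte markers. Mdr2-/- tumour replicate 3 was the highest of its group for 5 of the 10 acute phase genes, against 18.5% of all genes, and for 8 of 10 macrophage and monocyte markers. The part of these cells in the acute phase values was not tested.

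Marker transcripts of other liver cell types differed between the groups beside the acute phase genes. Of 8 stellate cell and fibroblast markers, 6 were higher in Mdr2-/- controls and 5 with tumour in wild-type livers, the collagen genes Col1a1, Col1a2 and Col3a1 in both. Of 6 Kupffer cell markers, 3 (Timd4, Vsig4 and Marco) were lower with tumour in Mdr2-/- livers, while 2 (Vsig4 and Cd5l) were higher with tumour in wild-type livers, and 2 (Timd4 and Vsig4) were higher and 1 (Cd163) lower in Mdr2-/- controls. Of 8 lymphocyte markers, 4 (Cd3e, Cd3d, Cd8a and Nkg7) were higher in Mdr2-/- than wild-type tumour livers. Of 6 endothelial markers, 5 were lower in that comparison. These counts use an edgeR adjusted p under 0.05. Of all genes, 26.2% were higher and 24.3% lower in Mdr2-/- controls, and the Kupffer cell counts there lay near these shares. With tumour, 16.9% of all genes were higher and 11.5% lower in wild-type livers, and 17.9% and 17% in Mdr2-/- livers. Between tumour-bearing livers 7.13% of all genes were higher and 4% lower in Mdr2-/- mice.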
